A study of Mus musculus with 12 samples.

Results

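The Hoxd cluster is a run of 9 homeobox genes on mouse chromosome 2, all on the plus strand. In the order of their canonical starts they are Hoxd13, Hoxd12, Hoxd11, Hoxd10, Hoxd9, Hoxd8, Hoxd3, Hoxd4 and Hoxd1. The canonical Hoxd3 transcript starts before Hoxd4 and ends past it, with a coding exon past Hoxd4. The cluster's peaks were taken as every listed peak in a member's promoter (2 kb on each side of the canonical transcription start site, TSS), in a member's body, or between members. That stretch is chr2:74496654-74597486 of the GRCm39 (mm39) build, 100833 bases with the 2 kb margins, and it held 66 of the 159554 peaks that 12 lists gave on the chromosomes used. The 9 genes are among 21757 protein-coding genes annotated there.

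The 12 lists, 1 library each, came from mouse bone marrow cells purified for c-Kit, a fraction rich in haematopoietic stem and progenitor cells. All of the cells carried a retrovirus for BAP1, and with it a retrovirus for a form of ASXL1 or an empty vector. BAP1 takes ubiquitin off histone H2A, ASXL1 is its partner, and H2AK119ub is H2A with that ubiquitin. The study asked how truncation of ASXL1, and mutations that change its condensation, alter where these proteins and this mark sit. H2AK119ub was mapped by CUT&RUN in 8 libraries. In the 1-590 set these were 10RA (residues 1 to 590, condensation-impaired per the labels), 25RA (the same residues, condensation-defective), the parent form 1-590 and an empty vector. In the 1-1067 set they were 34DN and 36EQ (residues 1 to 1067, both charge-neutralized), the parent form 1-1067 and that set's own empty vector. ChIP-seq gave BAP1 with 10RA and with 1-590, in cells that carried HA-tagged BAP1, and ASXL1 with 10RA and with 1-590, in cells that carried HA-tagged ASXL1. Both proteins were supplied by virus and the labels name no deletion of the cells' own genes for them. Each condition is 1 library, so no difference below has a replicate check, and the number of animals behind a library is not given in the sources used here. Peak lists hold no expression values, so the labelled cell type was not checked.

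Hox genes encode homeodomain transcription factors that set position along the body axis, and within a cluster the genes are laid out in the order of the positions they set. Hoxd genes are best known from the limb, the trunk and the external genitalia; blood cells use Hoxa and Hoxb genes more, although HOXD13 and HOXD11 are known in human leukaemia as fusion partners of NUP98. Where Hox genes are off, Polycomb repressive complexes cover them: complex 1 places H2AK119ub, complex 2 places H3K27me3, and both gather at developmental genes rich in CG dinucleotides.

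The sequences shown first are the stretches on which the results turn, in the reference genome of the mm39 build, plus strand, with every CG dinucleotide in capitals. The first 4 are stretches of the 1-590 set: the stretch before the Hoxd13 start that the 10RA, 1-590 and vector peaks share, and 3 stretches that the peaks of all 4 libraries share, cut to 300 bases where longer. The fifth is the 300 bases around the summit of the 1-590 peak in the first exon of Hoxd1. The last is the Hoxd13 peak of the 1-1067 library, shown because it lies in other sequence than the Hoxd13 peaks of the 1-590 set.
Hoxd13 upstream, chr2:74497610-74497821: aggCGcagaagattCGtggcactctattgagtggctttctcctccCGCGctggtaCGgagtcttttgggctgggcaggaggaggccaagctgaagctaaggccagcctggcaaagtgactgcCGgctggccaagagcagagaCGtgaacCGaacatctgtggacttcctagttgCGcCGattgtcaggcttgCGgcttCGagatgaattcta
Hoxd13 first exon, chr2:74498937-74499236: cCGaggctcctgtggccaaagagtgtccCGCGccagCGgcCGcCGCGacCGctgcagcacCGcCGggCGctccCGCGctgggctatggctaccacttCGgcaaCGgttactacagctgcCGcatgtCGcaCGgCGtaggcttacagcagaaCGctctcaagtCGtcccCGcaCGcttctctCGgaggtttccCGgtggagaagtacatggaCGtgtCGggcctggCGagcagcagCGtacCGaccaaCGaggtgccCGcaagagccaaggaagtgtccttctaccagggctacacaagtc
Hoxd12 upstream, chr2:74504284-74504583: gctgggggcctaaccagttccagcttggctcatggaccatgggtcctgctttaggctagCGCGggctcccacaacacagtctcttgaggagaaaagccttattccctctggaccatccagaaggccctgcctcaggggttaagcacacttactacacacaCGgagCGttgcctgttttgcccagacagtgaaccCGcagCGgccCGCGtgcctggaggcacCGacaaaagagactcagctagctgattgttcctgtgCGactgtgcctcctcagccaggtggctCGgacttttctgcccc
Hoxd8 upstream, chr2:74534328-74534478: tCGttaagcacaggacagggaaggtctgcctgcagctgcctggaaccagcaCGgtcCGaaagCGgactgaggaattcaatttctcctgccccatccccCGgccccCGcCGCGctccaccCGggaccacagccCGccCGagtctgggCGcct
Hoxd1 first exon, chr2:74593523-74593822: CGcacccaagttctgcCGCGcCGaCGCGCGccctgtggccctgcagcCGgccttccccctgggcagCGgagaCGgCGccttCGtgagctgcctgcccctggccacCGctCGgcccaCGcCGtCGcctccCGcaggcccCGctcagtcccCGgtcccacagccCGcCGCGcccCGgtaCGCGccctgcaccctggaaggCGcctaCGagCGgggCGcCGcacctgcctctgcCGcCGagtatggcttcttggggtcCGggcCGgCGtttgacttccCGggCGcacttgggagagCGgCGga
Hoxd13 intron, 1-1067 library, chr2:74499745-74499985: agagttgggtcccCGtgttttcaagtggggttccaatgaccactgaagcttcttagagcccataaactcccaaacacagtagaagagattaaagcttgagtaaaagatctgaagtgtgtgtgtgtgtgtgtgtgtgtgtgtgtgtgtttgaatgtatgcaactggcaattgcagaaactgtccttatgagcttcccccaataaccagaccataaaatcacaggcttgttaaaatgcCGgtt
The first exon of Hoxd13 held 32 CG in 300 bases and that of Hoxd1 held 40 in 300 bases. The stretch before Hoxd12 held 11 CG in 300 bases, and the Hoxd13 intron peak of the 1-1067 library held 2 in 241 bases.

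In the 1-590 set, H2AK119ub peaks were far denser in the cluster than over the genome in every library, the vector included, with 1 long stretch around Hoxd4 empty of them. The cluster held 18 peaks with 10RA, 13 with 25RA, 18 with 1-590 and 12 with the vector, and at the vector's depth it would hold 15, 12, 15 and 12. Per 100 kb this was 17.9, 12.9, 17.9 and 11.9 peaks in those libraries, against 1.04, 1.24, 1.19 and 0.739 over the genome. The peaks covered 7.64% of the cluster with 10RA, 4.91% with 25RA, 6.92% with 1-590 and 4.05% with the vector. The vector list is also the shallowest of the set, with a genome background (the caller's floor, in fragments per base) of 0.908, against 1.72 in the 10RA library, 1.86 in 25RA and 2.06 in 1-590. At matched depth the 25RA and vector counts were thus equal; the genes were also compared at matched depth.

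In the 1-1067 set the same cluster was nearly empty. It held 2 peaks with 34DN and 1 each with 36EQ, 1-1067 and the vector, although those libraries had genome backgrounds of 2.59, 2.84, 2.17 and 2.92. The 4 lists were short everywhere, with 5307 to 6310 peaks each against 20124 to 33863 in the 1-590 set. Per 100 kb the cluster held 1.98 peaks with 34DN and 0.992 with each of the other 3, against 0.195 to 0.232 over the genome. The sets were labelled as separate batches, so residue length and batch cannot be told apart.

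**Figure D1:**
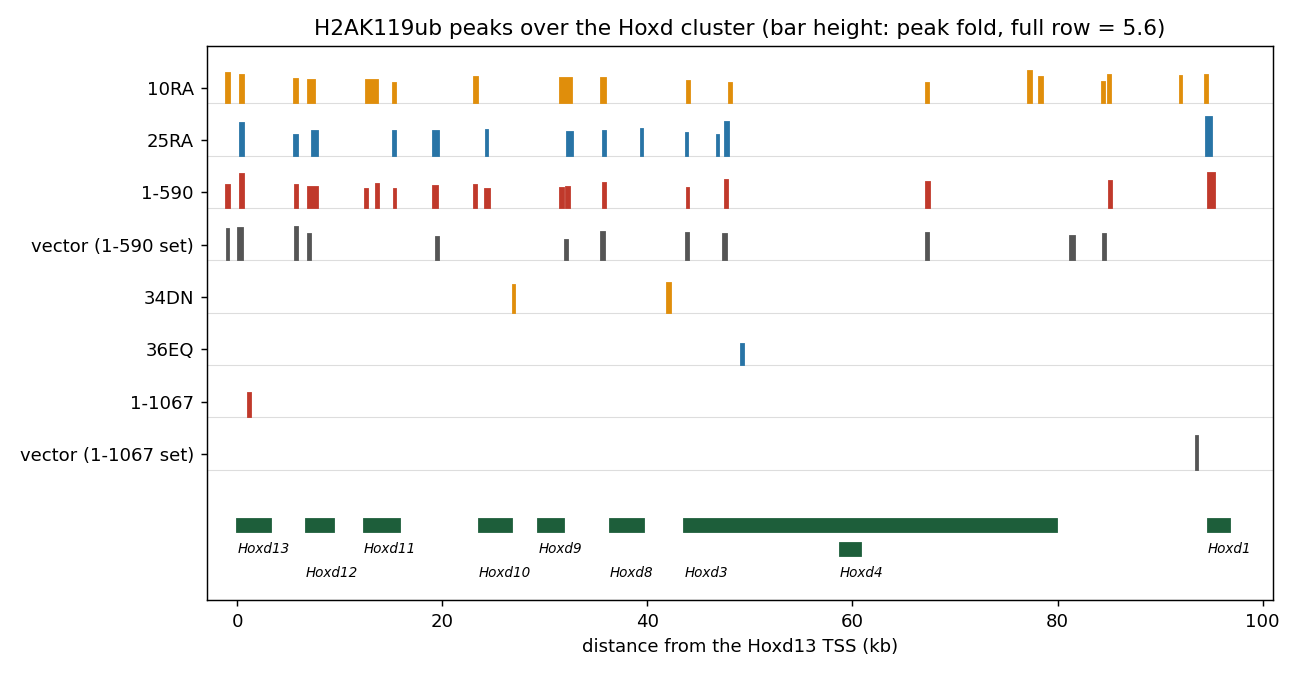
Position of each H2AK119ub peak along the Hoxd cluster, in kb from the Hoxd13 TSS, 1 row per library; bar height is the authors' fold at the summit and the boxes at the bottom are the gene bodies. In the 1-590 set 12 to 18 peaks start at Hoxd13 and leave an empty stretch around Hoxd4; those of 10RA, 25RA and 1-590 reach Hoxd1 and those of the vector end before it, and the 4 libraries of the 1-1067 set hold 5 peaks in all, none at a position listed in the 1-590 set.

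Promoters carried a peak at 7 of the 9 genes with 10RA (41.4% of all coding genes had one in that library), 6 with 25RA (47.8% of all genes), 7 with 1-590 (55.2% of all genes) and 4 with the vector (40.5% of all genes). Hoxd13, Hoxd12, Hoxd8 and Hoxd3 had a promoter peak in all 4 libraries. Hoxd10 and Hoxd1 had one with each ASXL1 form and none with the vector, and Hoxd11 had one with 10RA and 1-590 only. Hoxd9 and Hoxd4 had none in any of the 12 libraries.

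Set against the vector, 10RA added Hoxd11, Hoxd10 and Hoxd1 (3 of 9 genes; 11.1% of all genes were listed with 10RA and not with the vector), 25RA added Hoxd10 and Hoxd1 (2 genes; 14% of all genes) and 1-590 added Hoxd11, Hoxd10 and Hoxd1 (3 genes; 17.8% of all genes). No Hoxd gene was listed with the vector and missing from an ASXL1 form. Over all genes this held for 10.2% against 10RA, 6.6% against 25RA and 3.03% against 1-590. The vector listed 4 of the 9 genes, so 0 is near these shares and nothing particular to Hoxd is read from it. With a promoter of 5 kb on each side the vector also listed Hoxd10, so the added genes were Hoxd11 and Hoxd1 with each form, 2 in place of 3 for 10RA and 1-590. Set against 1-590, neither mutant form added a Hoxd gene (4.53% of all genes for 10RA, 5.53% for 25RA). Hoxd11 was the 1 gene listed with 1-590 and not with 25RA (12.9% of all genes), and none was listed with 1-590 and not with 10RA (18.4% of all genes).

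Depth was matched by scaling the fragments and the background at each summit to the vector's genome background and asking whether the caller's threshold, p of 0.001, was still met. All 3 added genes stayed listed. The share of all genes that stay listed at matched depth is not given here, so this count has no background beside it. Hoxd11 kept an exact Poisson p of 2.65e-05 with 10RA and 2.95e-05 with 1-590. Hoxd10 kept 6.81e-06 with 10RA, 1.4e-05 with 25RA and 0.000166 with 1-590, and Hoxd1 kept 0.000664, 9.07e-07 and 7.3e-05 in the same libraries. Hoxd3 went the other way: its 1-590 peak had a p of 0.00108 at the vector's depth and would drop out of the 1-590 list, while 10RA, 25RA and the vector would still list it. These p-values come from fragments within 1 library and compare a summit with its surroundings, not conditions with each other.

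At the 5′ end of the cluster, Hoxd13 patterns the digits, and its human counterpart is mutated in synpolydactyly. Its first exon carried a peak in all 4 libraries of the 1-590 set, with the summit 446 to 533 bases after the TSS. The summit held 36 fragments with 10RA, 42 with 25RA, 70 with 1-590 and 29 with the vector. In multiples of each library's genome background these were 20.9 (95% Poisson interval 14.6 to 29.0), 22.6 (16.3 to 30.5), 34.0 (26.5 to 42.9) and 32.0 (21.4 to 45.9); the intervals cover counting error only. The 2 mutant forms were thus lower than 1-590 and the vector at this summit, but the intervals of all 4 overlapped. The authors' fold over the local background was 3.06 with 10RA, 3.52 with 25RA, 3.59 with 1-590 and 3.45 with the vector, and the 1-590 peak was the strongest by −log10 q in the cluster, at 15.6. A second site, with its summit 944 to 991 bases before the start, was listed with 10RA (fold 3.26), 1-590 (2.48) and the vector (3.30), and not with 25RA.

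Hoxd12, a posterior limb gene like its neighbour, had 2 promoter sites in all 4 libraries. The site before the start had a fold of 2.59 with 10RA, 2.26 with 25RA, 2.48 with 1-590 and 3.55 with the vector. Its summit stood at 22.1 multiples with 10RA, 18.3 (12.7 to 25.6) with 25RA, 24.8 with 1-590 and 37.5 (25.9 to 52.4) with the vector. Here the vector was the highest of the 4, and this is the only shared site of the cluster where 2 intervals, those of 25RA and the vector, did not overlap. The site across the first exon and intron had a fold of 2.48 with 10RA, 2.62 with 25RA, 2.20 with 1-590 and 2.86 with the vector. There the 25RA and vector peaks did not overlap each other, with summits 686 and 249 bases after the TSS. They count as 1 site because the longer 10RA and 1-590 peaks overlap both.

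Hoxd11, which builds the forearm together with Hoxa11, was listed in its promoter by 2 of the 4 libraries. Its first exon was under 1 peak of 1141 bases with 10RA, at a fold of 2.51, and under 2 peaks with 1-590, at folds of 2.02 and 2.56. With 25RA the nearest peak, chr2:74513891-74514130 in the intron, began 916 bases beyond the promoter edge, with a fold of 2.64; the same intron site was listed with 10RA (2.23) and 1-590 (2.01). With the vector no peak lay in the gene, and the nearest was 3096 bases beyond the promoter. A list gives no value where no peak was called, so the level at Hoxd11 in the 25RA and vector libraries is unknown. Between Hoxd11 and Hoxd10, a site 4014 to 4247 bases before the Hoxd10 start was listed with 25RA (2.61), 1-590 (2.33) and the vector (2.5).

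Hoxd10, which helps to specify motor neurons of the hindlimb, was listed at different places by the mutant forms. The site just before its start was listed with 10RA (fold 2.80) and 1-590 (2.42), and the site in its first exon with 25RA (2.74) and 1-590 (2.02). Hoxd9, a gene of the trunk and proximal limb, had no promoter peak and a site at its other end. That site, around and just past the 3′ end, was listed in all 4 libraries, with a fold of 2.76 for 10RA, 2.58 for 25RA, 2.23 for the stronger of 2 peaks with 1-590 and 2.16 for the vector, whose q there was 12.1%. It began 167 to 781 bases outside the promoter. A promoter of 5 kb on each side would count Hoxd9 in all 4 libraries.

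Hoxd8, a gene of the trunk, had 1 promoter site, shared by all 4 libraries and nearly level in fold. The fold was 2.75 with 10RA, 2.61 with 25RA, 2.71 with 1-590 and 3.0 with the vector. The summit lay 498 to 607 bases before the TSS in every library. The 25RA list alone had a further peak in the last exon, at 2.86.

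Hoxd3, which shapes the first neck vertebra, has the longest canonical transcript. It starts before Hoxd4, where its promoter is taken here, and runs across Hoxd4 to a coding exon past it. Its first exon was listed in all 4 libraries, at a fold of 2.39 with 10RA, 2.48 with 25RA, 2.17 with 1-590 and 2.88 with the vector. Its summits were the lowest among the 6 shared sites, level with that past Hoxd9 in the vector library. An intron site with its summit 4049 to 4095 bases after the TSS was listed with 25RA (3.63), 1-590 (3.04) and the vector (2.85), while the nearest 10RA peak, at 2.19, lay beside it without overlap. A second intron site, past Hoxd4, was listed with 10RA (2.22), 1-590 (2.74) and the vector (2.95). Only the 10RA list had peaks in the last part of Hoxd3, chr2:74575752-74576147 at a fold of 3.51 and chr2:74576850-74577221 at 2.88. The first of these had the highest fold among the 10RA peaks of the cluster, while the 10RA peak before Hoxd13 had the higher −log10 q, 6.65 against 6.15.

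Hoxd4, a gene of the hindbrain and neck, sat in the largest stretch without a peak. That stretch ran for 18907 bases with 10RA, 46501 with 25RA, 19302 with 1-590 and 19349 with the vector. With 25RA it reached from the Hoxd3 intron at 74546609 to 74593109, just before Hoxd1. The nearest peak to the Hoxd4 TSS was 8392 bases away with 10RA, 10810 with 25RA, 8368 with 1-590 and 8383 with the vector. Annotated starts other than the canonical one change this gene's count: with the TSS of every transcript, Hoxd4 gained a promoter peak in all 4 libraries, since a long transcript of it starts near the Hoxd3 start.

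Hoxd1, at the 3′ end and known in mouse for pain-sensing neurons, had the strongest fold of the cluster with 25RA, at 4.17, and with 1-590, at 3.80. Both peaks had their summits in the first exon, 273 and 348 bases after the TSS. The 10RA peak, at 3.01, had its summit 180 bases before the TSS. The vector of this set had none; its nearest peak had its summit 10031 bases before the TSS, at a fold of 2.87. Hoxd1 had the lowest surroundings in the cluster, with a local background of 3.09 multiples of the genome background with 10RA, 2.94 with 25RA and 2.33 with 1-590.

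The local background, which the caller takes from fragments around a summit, can be read from each peak's fold and p. Use of a control library is not given, and with one these would be the control's fragments. Without one the local background describes how dense the library's own fragments were around the peaks. In cells profiled in bulk, less mark in every cell and fewer cells with the mark cannot be told apart. Over the cluster's peaks the median was 6.45 multiples of the genome background with 10RA (range 3.09 to 9.04), 6.47 with 25RA (2.94 to 8.41), 8.99 with 1-590 (2.33 to 10.6) and 8.13 with the vector (4.27 to 9.76). The median over all promoter peaks was 2.32, 2.37, 2.64 and 2.87 in the same libraries. Of all promoter peaks, 4.53% with 10RA, 2.76% with 25RA, 1.66% with 1-590 and 2.17% with the vector had a background at or above the cluster's median. In fold over that background the cluster's peaks were below the usual: their median fold was 2.75 with 10RA, 2.62 with 25RA, 2.45 with 1-590 and 2.87 with the vector, against 3.31, 3.30, 3.30 and 3.70 over all peaks of those lists.

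The background fell along the cluster in every library of the 1-590 set. Before the Hoxd3 TSS, over Hoxd13 to Hoxd8, the median was 7.92 with 10RA (9 peaks), 7.38 with 25RA (9 peaks), 9.38 with 1-590 (13 peaks) and 8.57 with the vector (7 peaks). From the Hoxd3 TSS on it was 5.04 with 10RA (9 peaks), 5.56 with 25RA (4 peaks), 5.0 with 1-590 (5 peaks) and 5.29 with the vector (5 peaks). These medians are over different places in each library, few of them in the second stretch. At the first exon of Hoxd3 the background was 6.47 with 10RA, 6.19 with 25RA, 7.11 with 1-590 and 6.55 with the vector, and at Hoxd1 it was highest with 10RA and lowest with 1-590. Beyond the cluster a high background was found at some peaks upstream and at none downstream. The 100 kb before the cluster hold Evx2 and Lnpk. The highest background there was 9.31 with 10RA, 8.04 with 25RA, 11.8 with 1-590 and 9.58 with the vector. The lowest there was 2.19 (8 peaks), 1.89 (9 peaks), 2.07 (8 peaks) and 2.63 (3 peaks) in the same libraries. In the 100 kb after the cluster, which hold Mtx2, the highest was 2.63, 2.33, 3.13 and 2.42.

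**Figure D2:**
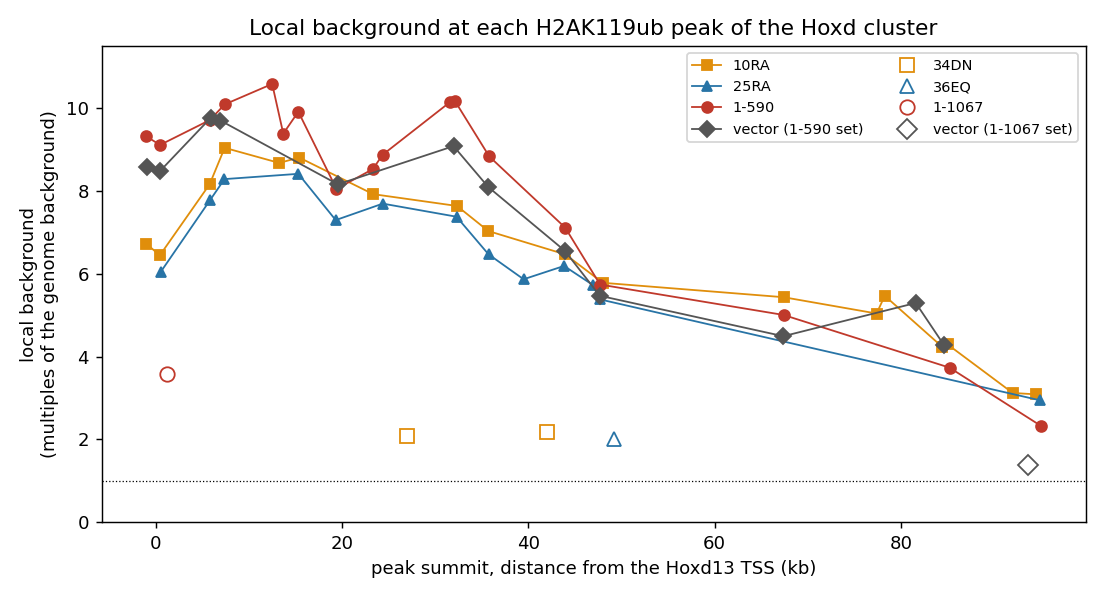
Local background at each H2AK119ub peak (y axis, multiples of that library's genome background, dotted line at 1) against the distance of its summit from the Hoxd13 TSS in kb; filled marks are the 1-590 set and open marks the 1-1067 set. Over Hoxd13 to Hoxd8 the 10RA and 25RA medians of 7.92 and 7.38 lie below the 1-590 and vector medians of 9.38 and 8.57, and from Hoxd3 on all 4 medians lie between 5.0 and 5.56.

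At the 6 sites listed in all 4 libraries the background could be compared site by site. Across the first exon and intron of Hoxd12 the 25RA and vector peaks did not overlap, so their ratio there compares neighbouring places. With 10RA the background was lower than with the vector at 6 of 6 sites, with a median ratio of 0.855, and lower than with 1-590 at 6 of 6, with a median ratio of 0.818. With 25RA it was lower than with the vector at 6 of 6 sites (median ratio 0.806) and lower than with 1-590 at 6 of 6 (0.767). With 1-590 it was above the vector at 5 of 6 sites, with a median ratio of 1.08. The 6 sites lie between Hoxd13 and Hoxd3 and share their surroundings, so they are not 6 independent measures. Each value is a multiple of its own library's genome background. A change of the mark over the whole genome would thus not show in these ratios, and they are not absolute levels of the mark.

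The same ratios elsewhere put these values in scale. Over all 6423 sites listed in all 4 libraries the median ratio to the vector was 0.757 with 10RA, 0.802 with 25RA and 0.898 with 1-590, and 91.1%, 91.7% and 74.3% of the sites were below the vector. Over the 298 other shared sites with a mean background at least as high as the lowest of the 6, the median ratio was 0.898 with 10RA, 0.813 with 25RA and 1.02 with 1-590, and 86.6%, 99.0% and 45.0% of the sites were below the vector. Over the 9 shared sites of the Hoxa, Hoxb and Hoxc clusters it was 0.935, 0.813 and 1.14. Values below the vector with the mutant forms were thus the rule at shared sites. The median ratio to 1-590 was 0.849 with 10RA and 0.898 with 25RA over all shared sites, where 84.0% and 75.9% were below 1-590. It was 0.871 and 0.805 over the other dense sites, where 83.9% and 91.3% were below, and 0.728 and 0.627 at the other Hox clusters. The Hoxd ratios to 1-590, 0.818 and 0.767, lay between those of the dense sites and those of the other Hox clusters. Nothing particular to Hoxd is read from these values. The comparison with dense sites was chosen after the values were seen.

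The summits at the 6 shared sites had medians of 21.5 multiples with 10RA, 19.1 with 25RA, 24.0 with 1-590 and 28.1 with the vector, against 11, 11.8, 15.1 and 17.6 over all 6423 shared sites. In the shallowest library, the vector, a site needs a higher multiple to be listed, and these sites were taken for being listed there.

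**Figure D3:**
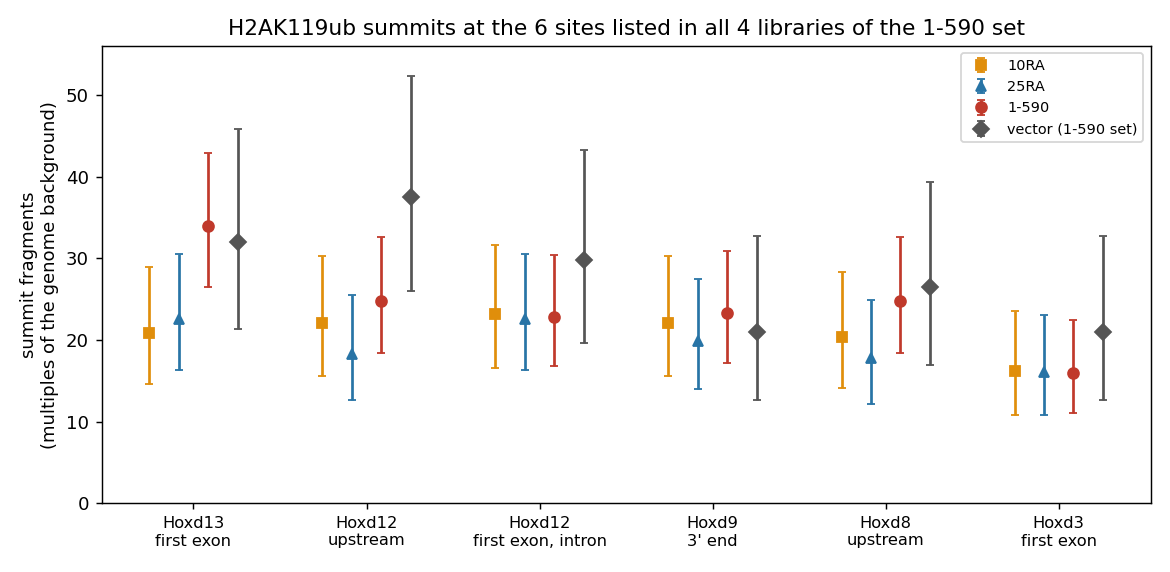
Fragments at the summit, in multiples of each library's genome background, at the 6 Hoxd sites listed in all 4 libraries of the 1-590 set; points are single libraries and bars are exact 95% Poisson intervals, counting error only. The intervals of all 4 libraries overlap at each site except before Hoxd12, where 25RA at 18.3 and the vector at 37.5 stand apart. Across the first exon and intron of Hoxd12 the 25RA and vector peaks themselves lie side by side without overlap.

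Peaks were joined across libraries by overlap. Peaks of a site need not all overlap each other, as at the first exon and intron of Hoxd12. So joined, the peaks of the 1-590 set made 24 sites. Of these, 6 were listed in all 4 libraries, 6 in 3, 5 in 2 and 7 in 1. Thus 25% of the cluster's sites were in all 4 lists, against 8.89% of 72244 sites over the genome, and 29.2% were in 1 list, against 68.4%. Of the 7 single-library sites, 4 were of 10RA, 2 of 25RA and 1 of the vector, and none was of 1-590. No peak of the 1-1067 set overlapped any of the 24 sites.

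The 5 peaks of the 1-1067 set lay elsewhere, and their local background was below the cluster medians of the 1-590 set. With 34DN, 1 peak lay before Hoxd9 (chr2:74525539-74525789, fold 2.97, q 5.0%) and 1 in the Hoxd3 promoter, 1658 bases before the TSS (fold 3.16, q 1.40%). With 36EQ the 1 peak was in the Hoxd3 intron (fold 2.24, q 44.4%). With 1-1067 it was in the Hoxd13 intron (fold 2.63, q 5.85%), and with the vector in the Hoxd1 promoter, 1071 bases before the TSS (fold 3.60, q 0.868%). The local background was 2.09 and 2.18 multiples with 34DN, 2.0 with 36EQ, 3.57 with 1-1067 and 1.37 with the vector. The median over all promoter peaks of those lists was 1.45, 1.57, 1.78 and 1.68. Within their own lists the cluster's peaks were thus above that median in all but the vector. Of all promoter peaks, 3.23%, 16.4%, 1.35% and 81.7% had a background at or above the cluster's median.

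Counted by promoter, 1 of 9 Hoxd genes was listed with 34DN (Hoxd3; 6.95% of all genes), 0 with 36EQ (8.52%), 1 with 1-1067 (Hoxd13; 9.21%) and 1 with the vector (Hoxd1; 7.44%). No gene was shared by 2 libraries. Set against the vector, 34DN added Hoxd3 (4.8% of all genes), 36EQ added none (6.02%) and 1-1067 added Hoxd13 (6.51%), and each lacked Hoxd1 (5.29%, 4.94% and 4.74% of all genes). Set against 1-1067, 34DN added Hoxd3 (4.27% of all genes) and 36EQ added none (5.27%), and both lacked Hoxd13 (6.52% and 5.96%). With a share of 1 gene in 9, these counts are near the background of the lists.

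The BAP1 and ASXL1 lists had no peak in the cluster. Promoter peaks were rare in them at all genes, at 0.552% with BAP1 in 10RA cells, 0.363% with BAP1 in 1-590 cells, 0.455% with ASXL1 in 10RA cells and 1.07% with ASXL1 in 1-590 cells. An average stretch of the cluster's length held 0.180, 0.132, 0.170 and 0.310 peaks in those lists, so 0 peaks is what most such stretches held. The nearest BAP1 peak was 340 kb away with 10RA and 1236 kb with 1-590. The nearest ASXL1 peak was 4.18 kb before the cluster with 10RA (chr2:74492292-74492477, fold 2.94, q 38.2%) and 34.8 kb after it with 1-590 (fold 2.64, q 19.6%). Both of these q values are high, and neither interval lies at a Hoxd gene.

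Hoxd stood among the other Hox clusters in its share of listed genes, with Hoxa below the rest in the 1-590 and vector libraries. With 10RA a promoter peak was listed at 7 of 9 Hoxd genes, 8 of 11 Hoxa, 8 of 10 Hoxb and 8 of 9 Hoxc genes, and with 25RA at 6, 7, 8 and 8. With 1-590 it was 7 Hoxd, 4 Hoxa, 7 Hoxb and 7 Hoxc genes, and with the vector 4 Hoxd, 1 Hoxa, 5 Hoxb and 6 Hoxc genes. The Hoxd cluster had the most peaks per 100 kb in all 4 libraries of the 1-590 set, at 17.9 with 10RA, 12.9 with 25RA, 17.9 with 1-590 and 11.9 with the vector. The next were Hoxa at 13.7 with 10RA, 11.9 with 25RA and 11.9 with 1-590, and Hoxc at 10.0 with the vector. The Hoxd stretch was also the shortest, at 100.833 kb, against 109.253 for Hoxa, 177.977 for Hoxb and 119.741 for Hoxc. With 10RA, Hoxd, Hoxa, Hoxb and Hoxc held 18, 15, 17 and 12 peaks, and with 1-590 they held 18, 13, 16 and 13. With 25RA they held 13, 13, 16 and 13, and with the vector 12, 2, 8 and 12. By count Hoxd was thus highest with 10RA and 1-590, level with Hoxc with the vector, and below Hoxb with 25RA.

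**Figure D4:**
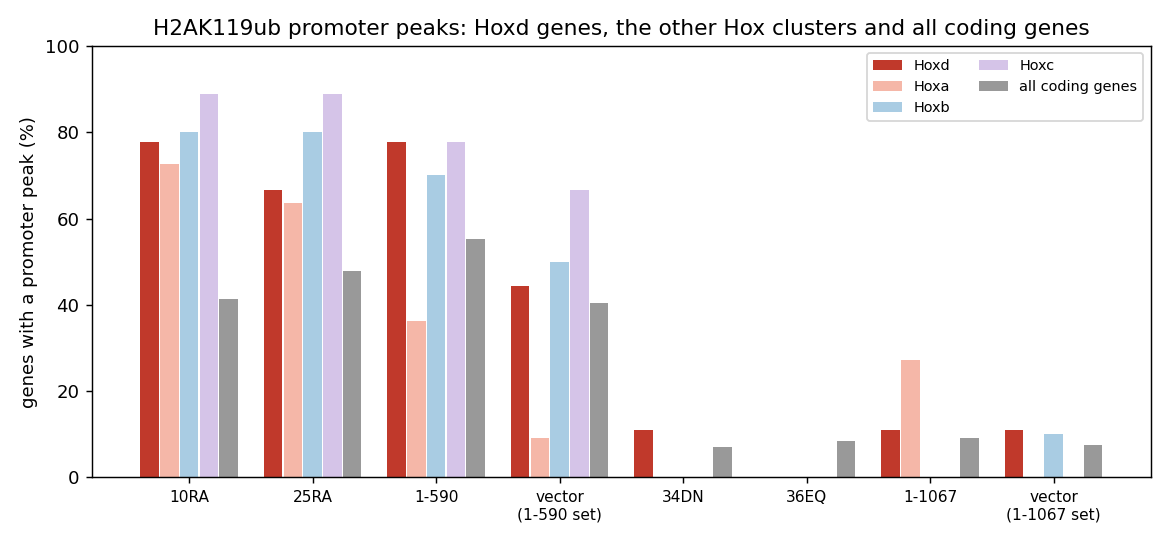
Share of genes with an H2AK119ub promoter peak (y axis, %) in each of 8 libraries, for the 9 Hoxd genes, 11 Hoxa, 10 Hoxb and 9 Hoxc genes and all 21757 coding genes. In the 1-590 set the Hoxd share is 7 of 9 genes with 10RA, 6 with 25RA, 7 with 1-590 and 4 with the vector; in the 1-1067 set no cluster exceeds 3 genes.

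By the pattern of listed and unlisted promoters over the 8 H2AK119ub libraries, Hoxd13 was like Hoxa13, its counterpart in the Hoxa cluster. Hoxd12 and Hoxd8 shared their pattern with each other and with 9 Hoxb and Hoxc genes. Hoxd10 shared its pattern with Hoxa9, Hoxa11, Hoxb8 and Hoxb1. Hoxd9 and Hoxd4, listed in none, were like Hoxa5, Hoxa7, Hoxb4 and Hoxb3. No other Hox gene had the pattern of Hoxd11, Hoxd3 or Hoxd1.

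Of the neighbours, Evx2, a homeobox gene next to Hoxd13, was listed with 10RA, 25RA and 1-590 and not with the vector. Lnpk and Mtx2, genes with no homeobox, were listed in all 4 libraries of the 1-590 set, and none of the 3 was listed in the 1-1067 set. Of 9 genes for HOX cofactors (Pbx, Meis and Pknox families), 4 had a promoter peak with 10RA, 5 with 25RA, 7 with 1-590 and 5 with the vector, beside 41.4%, 47.8%, 55.2% and 40.5% of all genes. In the 1-1067 set 2 had one with 34DN and 1 each with 36EQ, 1-1067 and the vector.

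By their medians, the cluster's peaks of the 1-590 set lay in sequence richer in CG than the peaks of their lists. Per 100 bases the median peak held 4.94 CG with 10RA, 4.80 with 25RA, 5.39 with 1-590 and 6.14 with the vector, against 2.03, 2.08, 2.49 and 2.99 over all peaks of those lists and 2.81 over the cluster as a whole. Single peaks were poorer: the lowest held 0.253 with 10RA, 2.60 with 25RA, 1.35 with 1-590 and 2.72 with the vector. The 0.253 belongs to the 10RA peak of 396 bases in the last part of Hoxd3, the one with the highest 10RA fold. The 5 peaks of the 1-1067 set held fewer, a median of 0.962 over the 2 peaks with 34DN, 0.806 with 36EQ, 0.830 with 1-1067 and 1.29 with the vector, against 0.952, 1.07, 1.19 and 1.04 over all peaks of those lists. CG, read the same on both strands, was counted in 1001 bases around each TSS. Hoxd13 held 118, as many as or more than all but 2.07% of promoters, and Hoxd1 held 94 (8.55%). Hoxd9, with no promoter peak, held 64, and Hoxd11, listed in 2 libraries, held 31, so the count did not order the genes by their listing. Of the remaining genes Hoxd4 held 42, Hoxd12 held 47, Hoxd10 held 48, Hoxd3 held 61 and Hoxd8 held 70, against a median of 43 over all coding genes.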

How the data were processed

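Peak lists in narrowPeak form, 1 per library and 12 in all, were used. Reads went through fastp 0.24.0 and Bowtie2 2.5.4 on mm39, SAMtools and Picard, and peaks through MACS3 3.0.3, per the submitters' processing notes; use of a control library is not given in the sources used here. Spike-in reads of E. coli served to normalize the CUT&RUN libraries per the labels, and the ChIP antibody is anti-BAP1 or anti-ASXL1 in one field and anti-HA in another. The deposited fold is a ratio of summit fragments plus 1 to local background plus 1. The deposited −log10 p and −log10 q, and the score made from −log10 p, are the authors' caller's, per list, and describe peaks within a list; another deposited column gives the summit. Peaks were listed down to p of 0.001 and were not cut by q. In the lists titled 25RA, 34DN and 36EQ the names of single peaks use different codes, and here the titles were followed.

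Whole fragment numbers and local backgrounds were recovered from fold and p with scipy 1.17.1 (checked on simulated data) in all but 3 peaks, none of them in the Hoxd cluster. The lowest background of a list is its genome background and stands for depth. The lists do not show whether a spike-in scale was applied by subsampling before calling. Genes and sequence are from GENCODE vM39 and GRCm39 (chromosomes 1 to 19, X and Y), the build of the files. Overlap means 1 base or more. With 1 library per condition, no test between conditions was made.

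The members and lists were chosen with earlier results of these data known. Genes named are the 9 Hoxd genes, the other Hox genes by count and identical pattern, the neighbours Evx2, Lnpk and Mtx2, and HOX cofactors by count. Alternatives were promoters of 1 kb and 5 kb, summits in place of intervals, q of 0.05, p of 1e-05, matched depth, no margin, peaks under 500 bases apart merged and, chosen after seeing the data, the start of every transcript.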

Additional observations from a re-analysis of the deposited data

How the results depend on the processing

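Of 244 alternative values, 31 moved and the rest kept the count (within 1.5 times) or the median. In the 1-590 set the number of Hoxd genes with a promoter peak kept within that range in all 4 libraries under every alternative run. With p of 1e-05 or less the vector of that set held 6 peaks in the cluster. At matched depth Hoxd3 dropped out of the 1-590 list, so 1 gene was listed with 10RA and not with 1-590, 1 with 25RA and not with 1-590, and 1 with the vector and not with 1-590, in place of 0 each. With a promoter of 5 kb on each side, 0 genes were listed with 1-590 and not with 25RA, in place of Hoxd11. The highest local background in place of the median was 9.04 multiples with 10RA, 8.41 with 25RA, 10.6 with 1-590 and 9.76 with the vector, and at q of 0.05 or less the 10RA median was 6.47. In the 1-1067 set, where counts are 0 to 2, a promoter of 1 kb left 0 genes with 34DN and 0 with 1-1067, one of 5 kb gave 3 with 34DN, and the start of every transcript gave 2 with 34DN. With q of 0.05 or less, 0 peaks, 0 bases and 0 genes remained with 1-1067, and 0 peaks and 0 bases with 36EQ, which also held 0 peaks at p of 1e-05 and at matched depth. The pairs of that set moved with these counts: at 1 kb, 0 genes were listed with 34DN and not with the vector, with 34DN and not with 1-1067, with 1-1067 and not with the vector, 34DN or 36EQ; at 5 kb, 3 were listed with 34DN and not with the vector and 3 with 34DN and not with 1-1067; at q of 0.05, 0 were listed with 1-1067 and not with the vector, 34DN or 36EQ. The cause of these moves was not tested beyond what each threshold removes. No paired analysis was possible because each condition is 1 library. Depth limits the vector list of the 1-590 set most, and a gene without a peak in a list has no value there, so its level is not known to be 0.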
